A study of Mus musculus with 27 samples.

Results

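The 52 genes described here encode the digestive machinery of the lysosome. They comprise 10 cathepsins, 8 subunits of the cytosolic V1 sector of the vacuolar proton pump, 8 subunits and accessory proteins of its membrane sector V0, 6 lysosomal membrane proteins, 6 proteins of lipid breakdown and export, 11 glycosidases, sulfatases and other storage-disease enzymes, and the 3 transcription factors Tfeb, Tfe3 and Mitf. The list was given by gene symbol, and all 52 symbols were found among the 38124 genes of the count table. All 52 were also among the 13599 genes with enough reads to be tested.

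The study sequenced polyadenylated RNA of macrophages washed from the airspaces of C57B/6 mice aged 8 to 14 weeks and sorted by surface markers. Recruited cells (CD11c-CD11b+) were taken 3, 6, 9 and 12 days after 20 ng lipopolysaccharide (LPS, a bacterial cell wall component that inflames the lung) in 50 µL saline was put into the trachea. Resident cells (CD11c+CD11b-) were taken on the same 4 days and, as day 0, from untreated mice. There were 3 libraries in each of the 9 groups, 27 in all, and no recruited cells on day 0, so recruited cells were compared over time with their own day 3. Nothing in the labels ties the replicates to separate animals, so p-values measure the spread between these libraries, which may be technical.

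Lysosomes digest what a macrophage engulfs. The vacuolar proton pump acidifies them, and cathepsins and other hydrolases that work at acid pH take proteins, sugars and lipids apart, after which membrane transporters return the products to the cell. TFEB, TFE3 and MITF are related transcription factors that switch on many of these genes through a shared E-box motif. In the airspaces, alveolar macrophages use this machinery on spent surfactant, dying cells and microbes.

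Libraries held 11093216 to 18299674 counts (median 14859352), and values are given as CPM, the share of a library's gene counts scaled to a common total by the trimmed mean of M-values (TMM). The 9 resident alveolar macrophage markers (Siglecf, Marco, Pparg, Fabp4, Chil3, Car4, Krt79, Ear1 and Ear2), of which none was at 0 in either population, summed to 1735 to 8995 CPM in recruited cells, against 13825 to 31714 CPM in resident cells. Most of each sum was Chil3, at 1366 to 7654 CPM in recruited and 10913 to 27213 CPM in resident libraries. Siglecf, by contrast, ranged from 1.82 to 89.2 CPM in recruited and from 139 to 622 CPM in resident libraries. The 5 classical monocyte markers, also all detected, summed to 317 to 3137 CPM in recruited cells and 6.17 to 106 CPM in resident cells. In recruited cells their sum was 404 to 754 CPM on day 12, against 1833 to 3137 CPM on day 3. The 13 neutrophil markers summed to 283 to 1092 CPM in recruited cells and 117 to 274 CPM in resident cells, with the defining marker Ly6g at 0 in every library of days 0, 6, 9 and 12. In recruited cells their sum was highest on day 3, at 527 to 1092 CPM, against 283 to 446 CPM on later days. On day 3 Ly6g was at 0.07 to 0.31 CPM in recruited and at most 0.2 CPM in resident libraries. The 9 epithelial markers summed to 10.8 to 131 CPM in recruited cells and 261 to 858 CPM in resident cells. In resident cells nearly all of that sum came from Krt19 (173 to 728 CPM), Cdh1 (43.3 to 105 CPM) and Epcam (8.01 to 103 CPM). Sftpc, Sftpb, Scgb1a1, Krt8, Krt18 and Foxj1 were each at most 1.86 CPM in resident libraries. The 10 T and NK cell markers summed to at most 20.8 CPM in any library. These cell markers move with the population and, in recruited cells, with the day, as do many results that follow, and their part in those results was not tested. In such bulk samples fewer cells of a type and less RNA per cell cannot be told apart.

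One set of 4 libraries stood apart for the lysosomal genes. They carry the numbers 12 to 18 in the column headers, whose meaning the labels do not give, and are recruited day 9 replicate 2, recruited day 12 replicate 1, resident day 9 replicate 2 and resident day 12 replicate 1. Of the 52 genes, 45 in the recruited day 9 library, 49 in the recruited day 12 library, 43 in the resident day 9 library and 46 in the resident day 12 library were above both other libraries of the group. The same held for 38.7% to 39.4% of all tested genes. In all 4 libraries at once it held for 39 of the 52 genes, against 14.5% of all tested genes. Of the other 23 libraries, resident day 0 replicate 1 came nearest, with 37 of the 52 genes above both others of its group, beside 40.1% of all tested genes. The median gene of the list stood at 1.51 and 1.38 times the mean of the other libraries on days 9 and 12 in recruited cells, and at 1.21 and 1.25 times in resident cells. The 4 libraries also had the 4 lowest shares of reads outside genes, 6.77% to 7.06%, against 8.08% to 26.45% in the other 23 libraries. Cell markers moved with them too. Lyz2, a lysozyme gene of macrophages and monocytes, stood at 48004 and 53191 CPM in the recruited libraries of days 9 and 12, against 20736 to 28484 CPM in their partners, while of the other 4 macrophage markers (Adgre1, Fcgr1, Mertk and Csf1r) 4 on day 9 but only 2 on day 12 exceeded both partners. The 5 classical monocyte markers summed to 1336 and 754 CPM in the 2 recruited libraries, against 317 to 580.4 CPM in their partners. Of the 9 resident alveolar macrophage markers, 5 and 8 lay below both partners, and their sum was 2807 CPM on day 9, against 2398 and 7374 CPM, and 1735 CPM on day 12, against 8413 and 8995 CPM. Most of each of these sums was Chil3. The epithelial marker Sftpc was at 13.5 and 12.0 CPM, against 0.49 to 1.4 CPM. In each of the 4 libraries 5 of the 9 epithelial markers exceeded both partners, but the sum of the list exceeded both in none of them. In the 2 resident libraries Lyz2 was at 39308 and 40485 CPM, against 22975 to 25485 CPM in their partners. The part of these shifts in the lysosomal values was not tested. For many of the 52 genes, tests that rest on these 4 libraries are given below with and without them. Group means in CPM or percent, their SDs and the results of genes outside the 52 include them throughout.

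**Figure D1:**
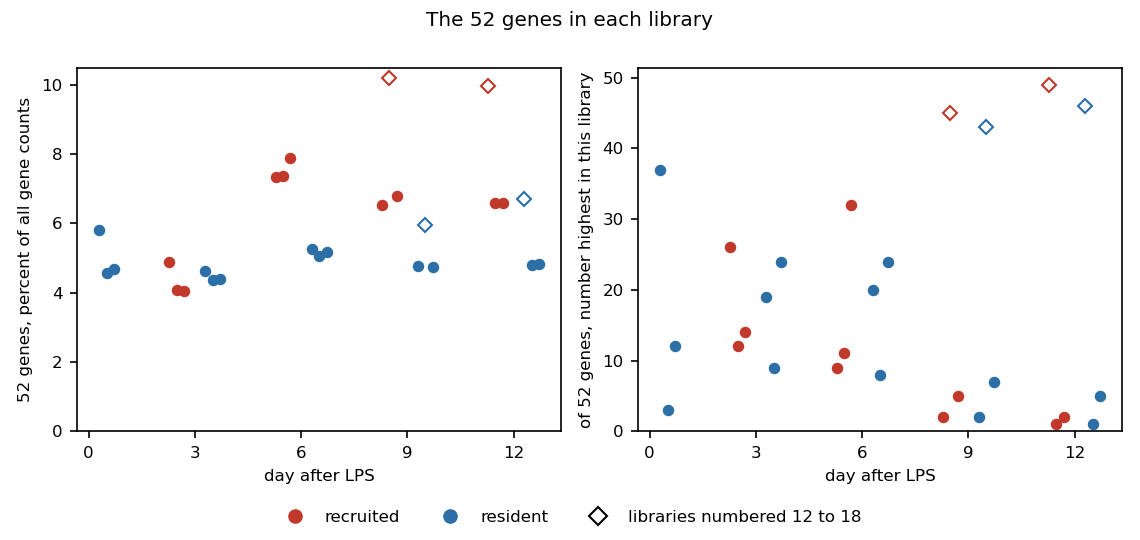
The left panel plots the percentage of all gene counts taken by the 52 genes in each of the 27 libraries, by day (recruited cells in red, left of resident cells in blue; open diamonds are the 4 libraries numbered 12 to 18). The right panel plots how many of the 52 genes were highest in that library of its group of 3; the 4 diamonds lie at 43 to 49 of 52.

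The 52 genes together took 4.34% ± 0.47 of all gene counts in recruited cells on day 3, 7.53% ± 0.32 on day 6, 7.83% ± 2.03 on day 9 and 7.70% ± 1.96 on day 12 (SD, n = 3 each). In resident cells they took 5.01% ± 0.69 on day 0, 4.46% ± 0.15 on day 3, 5.15% ± 0.11 on day 6, 5.15% ± 0.68 on day 9 and 5.44% ± 1.09 on day 12. Recruited cells on days 6, 9 and 12 thus lay above their day 3 level in every library, from 6.53% upwards against at most 4.88%. Cathepsins accounted for much of the share of the 52 genes, with 4.12% ± 1.52 in recruited cells on day 12 and 1.97% ± 0.21 on day 3. The pump genes took 0.448% ± 0.028 on day 12 and 0.359% ± 0.011 on day 3. Per kilobase of transcript, Ctsd (9492 CPM per kb), Ctss (8056) and Psap (6168) led the list in recruited cells on day 12, and Ctsd (6324), Psap (3953) and Ctss (2962) led it in resident cells on day 12.

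Averaged over days 3 to 12, 24 of the 52 genes were higher and 13 lower in recruited than in resident cells at an adjusted p under 0.05, by the quasi-likelihood test of edgeR, Benjamini-Hochberg adjusted over all tested genes, which gives every adjusted p in this text. The background was high, with 60.3% of all tested genes called in this comparison, 30.3% higher and 30.0% lower. The count of lower genes lay near that background and the count of higher genes above it. The median log2 difference was 0.18 for the 52 genes and 0.02 for all tested genes. On day 3, 10 genes were higher and 8 lower (46.6% of all tested genes called, 23.2% higher and 23.5% lower). On day 6 the counts were 16 and 10 (35.0%, 16.2% and 18.8%), and on day 9 they were 16 and 8 (32.0%, 15.5% and 16.4%). On day 12 they were 9 and 5 (27.3%, 12.6% and 14.7%). In this fit the share of the 52 genes that was higher exceeded the background on days 6, 9 and 12 and lay below it on day 3 (19.2% of the 52). The day 12 share was 17.3%, beside 12.6%. With only the compared libraries it was 44.2% on day 6, beside 18.8%, and 11.5% on day 9, beside 9.94%. On day 12 that fit gave 9.62%, below the 11.1% of all tested genes. With the replicate block the day 3 share was 30.8%, beside 25.9% of all tested genes. When the recruited and resident libraries of the same number were paired as a replicate block, the day 12 counts were 21 higher and 9 lower, 30 in place of 14, with 35.1% of all tested genes called in that fit, 17.5% in either direction. With library size alone in place of TMM scaling, 9 of the 52 genes were higher and 13 lower on day 3. Of all tested genes, 16.9% were higher and 27% lower in that fit, so the counts of the 52 genes lay near the background. The median of all tested genes on day 3 was -0.07 in that fit, against 0.05 with TMM.

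In 11 of the 52 genes the recruited libraries lay apart from the resident ones, in the same direction, on each of the 4 days. These were 8 with higher and 3 with lower levels in recruited cells, a share of 21.2%, near the 19.5% of all tested genes (8.82% higher and 10.7% lower). By the test, Ctss, Ctsh, Npc2 and Mitf were higher on each of the 4 days, and Ctsk, Ctsf and Laptm5 lower on each. Atp6v0a1 was the one gene called in both directions, lower on day 3 and higher later. Ctsa, Atp6v1a, Atp6v1d, Atp6v1h, Atp6ap2, Cd68, Gusb and Galns passed the test in none of the 16 comparisons made.

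**Figure D2:**
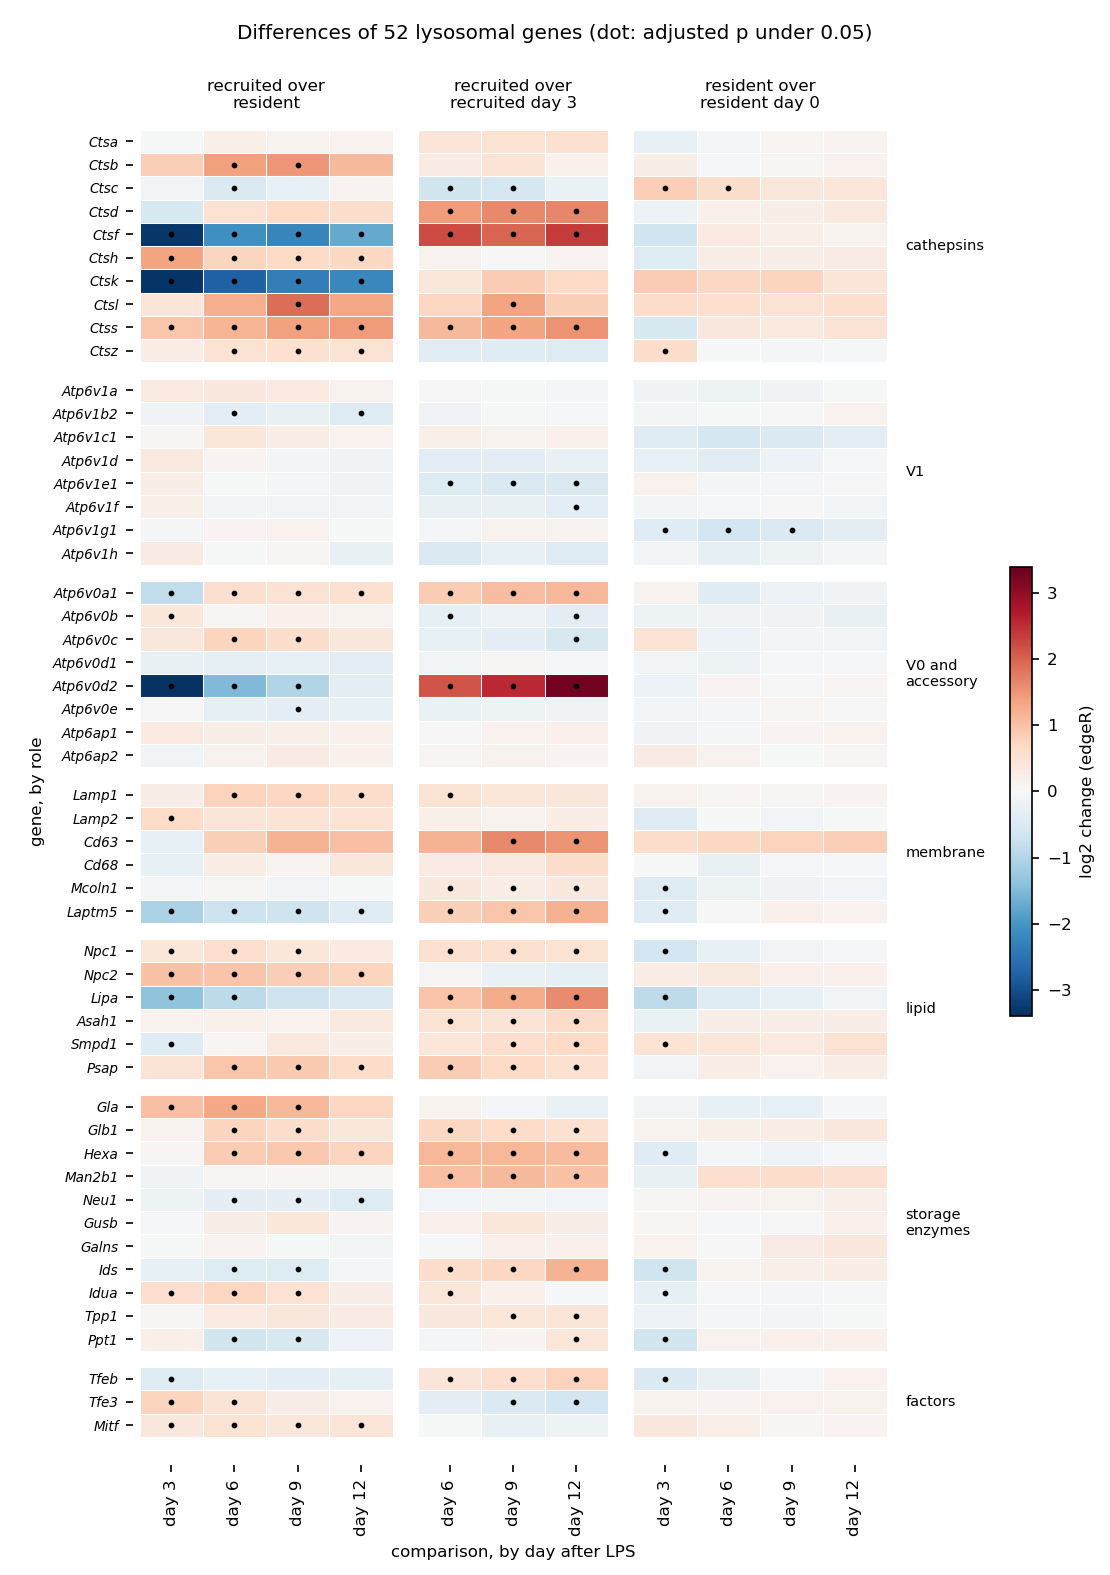
Log2 change of the 52 genes (rows, grouped by role) in 11 comparisons (columns): recruited over resident cells on days 3, 6, 9 and 12, recruited cells on days 6, 9 and 12 over day 3, and resident cells on days 3, 6, 9 and 12 over day 0. Dots mark an adjusted p under 0.05; most dots lie in the 7 columns that involve recruited cells, and the resident day 12 column has none.

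The 3 transcription factors differed in direction. Tfeb was lower in recruited than in resident cells, by a log2 difference of -0.34 ± 0.08 (SE; adjusted p = 0.000757) averaged over days, with the recruited library lower in 12 of 12 same-numbered pairs. Recruited cells held 57.6, 53.2 and 49.1 CPM on day 3, 72.3, 69.7 and 72.8 on day 6, 70.4, 76.7 and 88.9 on day 9, and 82.5, 95.2 and 95.0 on day 12. Resident cells held 122, 94.8 and 90.8 CPM on day 0, 82.2, 72.4 and 61.3 on day 3, 100.1, 82.4 and 77.5 on day 6, 90.1, 82.7 and 125 on day 9, and 90.3, 130.1 and 117 on day 12. The libraries of both populations lay apart on days 3 and 6 and overlapped on days 9 and 12. In recruited cells Tfeb rose over time, by 0.77 ± 0.16 on day 12 over day 3 (adjusted p = 0.00046). In resident cells it fell on day 3 relative to day 0 (-0.51 ± 0.16, adjusted p = 0.0218), a call that ended without resident day 0 replicate 1 (-0.37, adjusted p = 0.126) and without day 3 replicate 2 (adjusted p = 0.0521) or 3 (adjusted p = 0.13).

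Tfe3 ran the other way. Recruited cells held 167, 197 and 208 CPM on day 3, 141, 145 and 171 on day 6, 115, 172 and 113 on day 9, and 156, 109.7 and 107 on day 12. Resident libraries of days 0 to 12 stayed between 96.1 and 125 CPM, below every recruited library of days 3 and 6. The difference averaged 0.40 ± 0.08 (adjusted p = 7.13e-05), was 0.76 ± 0.15 on day 3 (adjusted p = 0.000212) and 0.16 ± 0.15 on day 12 (adjusted p = 0.493). Within recruited cells Tfe3 fell by 0.62 ± 0.15 on the log2 scale on day 12 relative to day 3 (adjusted p = 0.0021). The change in the population difference between day 12 and day 3 was -0.61 ± 0.21 (adjusted p = 0.0583); it passed the test with the replicate block (-0.58, adjusted p = 0.0166) and without the 4 libraries numbered 12 to 18 (-0.73, adjusted p = 0.00284).

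Mitf, best known from osteoclasts and pigment cells, was higher in recruited cells, with 63.4 CPM at the lowest, 91.1 in the median and 112 at the highest of 12 libraries, against 57.9, 68.5 and 84.4 CPM in the 12 resident libraries of the same days. The ranges overlap over days, but within each day every recruited library except 1 on day 9 exceeded the resident ones. The mean difference was 0.43 ± 0.07 (adjusted p = 1.01e-05). The calls on days 3, 9 and 12 each ended without 1 or another of several libraries, at adjusted p-values up to 0.156, and those on days 9 (0.39, adjusted p = 0.0699) and 12 (0.36, adjusted p = 0.117) ended without the 4 libraries. No time comparison of Mitf passed the test.

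**Figure D3:**
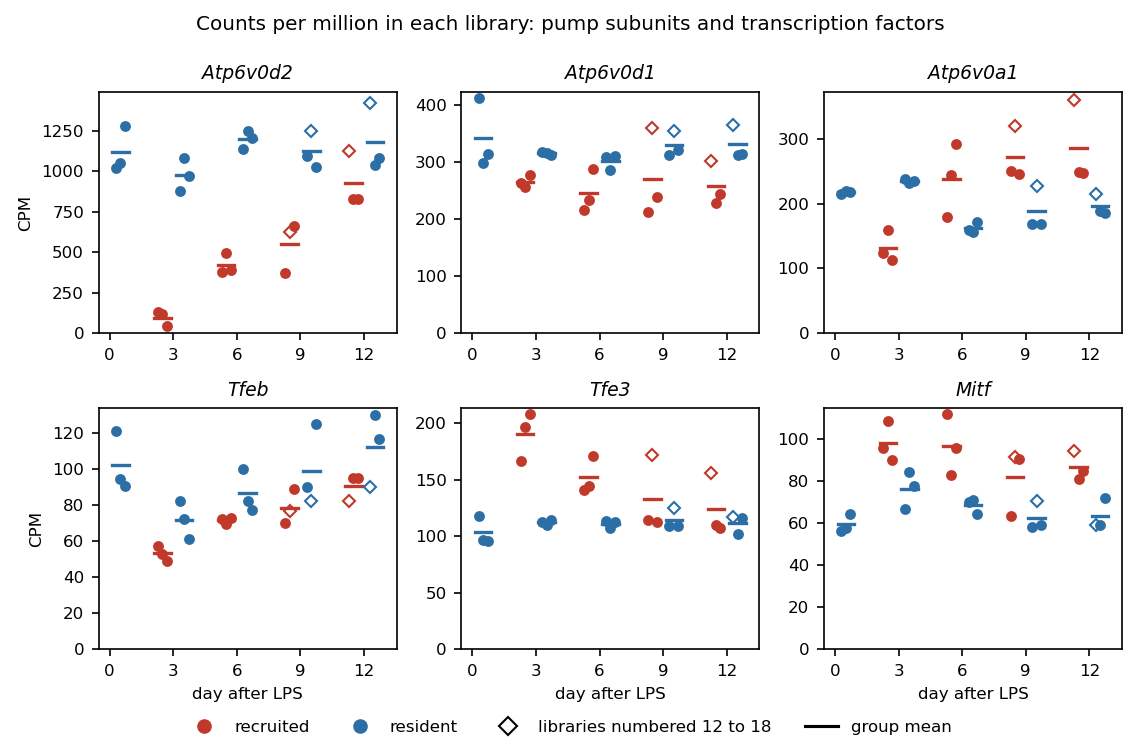
CPM per library by day for the pump genes Atp6v0d2, Atp6v0d1 and Atp6v0a1 and the factors Tfeb, Tfe3 and Mitf (recruited cells in red, left of resident cells in blue; open diamonds are the 4 libraries numbered 12 to 18). Recruited Atp6v0d2 climbs to 826 to 1124 CPM on day 12, against 40.6 to 127 CPM on day 3, while recruited Tfe3 lies nearer to the resident points on days 9 and 12 than on day 3, except in the 2 recruited diamonds (172 and 156 CPM).

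The E-box motif of these factors can be read in the members' promoters. A RefSeq promoter window on GRCm38.p6, from 250 bases before to 50 bases after the annotated start, was on hand for 42 of the 52 genes. The full palindromic CLEAR element was in 0 of the 42, beside 0.819% of the 9894 tested genes with a window. Its inner letters TCACGTGA were in 7 of the 42 (16.7%), beside 2.14% of those tested genes. The core CACGTG, which lies inside the longer motifs, was in 12 of the 42 (28.6%, beside 11.9%), and TCATGTGA, an M-box associated with MITF, was in 5 (11.9%, beside 0.98%), namely Ctss, Ppt1, Tpp1, Atp6v0c and Gla. Both strands were searched. The 7 genes with TCACGTGA are shown because they carry the motif in its most complete form found here, each 5′ to 3′ on the strand of the gene, with CACGTG and TCACGTGA in capitals:
Ctsa, chr2:164833715-164833802, plus strand: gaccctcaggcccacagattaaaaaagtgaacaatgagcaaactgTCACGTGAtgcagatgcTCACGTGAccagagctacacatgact
Ctsd, chr7:142387872-142387971, minus strand: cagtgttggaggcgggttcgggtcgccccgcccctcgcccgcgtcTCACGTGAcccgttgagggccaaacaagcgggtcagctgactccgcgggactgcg
Atp6v1a, chr16:44139337-44139436, minus strand: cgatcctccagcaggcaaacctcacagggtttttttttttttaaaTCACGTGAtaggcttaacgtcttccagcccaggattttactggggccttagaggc
Atp6v0d1, chr8:105566035-105566113, minus strand: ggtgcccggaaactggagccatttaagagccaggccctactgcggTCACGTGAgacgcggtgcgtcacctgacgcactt
Atp6v0e, chr17:26676353-26676425, plus strand: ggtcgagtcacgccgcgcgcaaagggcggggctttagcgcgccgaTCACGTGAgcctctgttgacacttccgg
Gla, chrX:134601179-134601255, minus strand: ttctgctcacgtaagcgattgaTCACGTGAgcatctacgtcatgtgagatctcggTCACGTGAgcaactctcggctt
Mcoln1, chr8:3500428-3500527, plus strand: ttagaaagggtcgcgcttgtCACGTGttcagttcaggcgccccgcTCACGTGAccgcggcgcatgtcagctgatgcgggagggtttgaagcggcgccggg
Ctsa and Gla carry TCACGTGA at 2 places in the stretch shown. The 7 genes did not move as one in recruited cells between day 3 and day 12. Ctsd (1.66 ± 0.32, adjusted p = 0.000244) and the calcium channel Mcoln1 (0.37 ± 0.09, adjusted p = 0.0024) rose on day 12, whereas the other 5 did not pass the test, with log2 changes of 0.53 in Ctsa, -0.06 in Atp6v1a, -0.04 in Atp6v0d1, -0.16 in Atp6v0e and -0.22 in Gla. A match in these letters describes the sequence and does not show binding.

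Of the 10 cathepsins, 5 were higher and 3 lower in recruited cells averaged over days, with a median log2 difference of 0.38 beside 0.02 for all tested genes. Ctss, an elastin-cleaving cysteine protease that trims the invariant chain of class II molecules, was 2.36 times as high in recruited cells (log2 1.24 ± 0.11, adjusted p = 8.03e-10). Recruited cells held 4389, 3546 and 3523 CPM on day 3, 8510.1, 8139 and 7986 on day 6, 7649, 13272 and 7886 on day 9, and 15872, 8619 and 8258 on day 12. Resident cells held 2756, 2892 and 3019 CPM on day 0, 2172, 1911 and 1835 on day 3, 3891, 3497 and 3717 on day 6, 3571, 4019 and 3333 on day 9, and 4879.8, 3487 and 3676 on day 12. The populations lay apart on every day. Ctss rose in recruited cells on each later day over day 3, by 1.51 ± 0.22 on day 12 (adjusted p = 7.17e-06) with all libraries and by 1.17 (adjusted p = 4.58e-08) without the 4 libraries.

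Ctsh, a cysteine protease with aminopeptidase activity, was also higher in recruited cells throughout. Its recruited libraries held 593 CPM at the lowest, 706 in the median and 1008 at the highest, and its resident libraries 253, 442 and 537 CPM. No recruited library of days 3 to 12 fell into the resident range. The mean difference was 0.87 ± 0.09 (adjusted p = 7.32e-09), and it was 1.35 ± 0.17 on day 3 and 0.70 ± 0.17 on day 12. The day 9 difference was 0.68 with all libraries, 0.43 (adjusted p = 0.0508) without recruited replicate 2 alone, and 0.46 (adjusted p = 0.00672) without the 4 libraries. The difference on day 12 minus that on day 3 was -0.65 ± 0.24 (adjusted p = 0.0792), but -0.64 (adjusted p = 0.0106) with the replicate block and -0.76 (adjusted p = 0.00263) without the 4 libraries. Over time in recruited cells Ctsh did not pass the test (0.09 ± 0.17 on day 12 over day 3, adjusted p = 0.71).

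Ctsb and Ctsl, cysteine proteases of general protein breakdown, were 2.32 and 2.34 times as high in recruited cells averaged over days (log2 1.21 ± 0.24, adjusted p = 0.000213, and 1.23 ± 0.26, adjusted p = 0.000445). Recruited Ctsb stood at 4977, 4529 and 4631 CPM on day 3, 4986, 4740.3 and 7573 on day 6, 2837, 12910.2 and 3699.9 on day 9, and 10369.5, 2707 and 2812 on day 12. Resident Ctsb stood at 2952, 1866 and 1906 CPM on day 0, 2554, 2458 and 2845 on day 3, 2216, 2118 and 2226 on day 6, 1846, 3068 and 1979 on day 9, and 3389, 2007 and 2005 on day 12. The 2 highest recruited values belong to the libraries numbered 12 to 18, and of the 4 other recruited libraries of days 9 and 12 each exceeded the resident libraries of its day that are not numbered 12 to 18. Ctsb was higher in the recruited library of 12 of 12 pairs. The day 9 difference of Ctsb was 1.50 (adjusted p = 0.0236) with all libraries, 0.51 (adjusted p = 0.389) without recruited day 9 replicate 2 alone, and 0.77 (adjusted p = 0.00739) without the 4 libraries. The call on day 6 (adjusted p = 0.0308) ended without recruited day 6 replicate 3 (1.15, adjusted p = 0.109). Without the 4 libraries the mean difference was 0.87 (adjusted p = 8.99e-08).

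The time course of Ctsb in recruited cells reversed with those libraries. With all of them the log2 change over day 3 was 0.46 ± 0.48 (adjusted p = 0.487) on day 9 and 0.17 ± 0.48 (adjusted p = 0.811) on day 12. Without the 4 libraries Ctsb fell, by 0.51 on day 9 (adjusted p = 0.0397) and by 0.75 on day 12 (adjusted p = 0.00401). Ctsl ranged from 394 CPM over a median of 548 to 2259 CPM in recruited libraries, and from 211 over 312 to 490 CPM in resident ones. Its day 9 difference was 1.91 (adjusted p = 0.00951), 1.03 (adjusted p = 0.129) without recruited day 9 replicate 2 alone, and 1.50 (adjusted p = 0.00259) without the 4 libraries. On day 9 over day 3 recruited Ctsl changed by 1.37 with all libraries (adjusted p = 0.0492) and by 0.51 without that library, and the call ended in 5 of 6 leave-one-out fits.

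Ctsd, the aspartic protease of the lysosome and the most abundant transcript of the list per kilobase on day 12, changed place between the populations over time. Recruited cells held 7376, 6171 and 5658 CPM on day 3, 15833, 17657 and 18759 on day 6, 13285, 30791 and 15311 on day 9, and 31289.5, 14111 and 15169.6 on day 12. Resident cells held 13236, 9238 and 9631 CPM on day 0, 9702, 9154 and 9131 on day 3, 12309, 11590.4 and 12262 on day 6, 9719, 16793 and 10728 on day 9, and 19694, 10287 and 10369 on day 12. Every recruited library was below the resident ones on day 3 and above them on day 6, and the groups overlapped on days 9 and 12. In recruited cells Ctsd was 3.15 times as high on day 12 as on day 3 (log2 1.66 ± 0.32, adjusted p = 0.000244; 1.22 without the 4 libraries, adjusted p = 8.11e-07). The population difference did not pass the test averaged over days (0.31 ± 0.16, adjusted p = 0.0892), on day 3 (-0.54 ± 0.31, adjusted p = 0.162) or on day 12 (0.59 ± 0.31, adjusted p = 0.178). With the replicate block all 3 passed it, at 0.29 (adjusted p = 0.000195), -0.57 (adjusted p = 0.000331) and 0.58 (adjusted p = 0.000634).

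The change of the Ctsd difference between day 12 and day 3 was 1.13 ± 0.44 (adjusted p = 0.0953), 1.15 (adjusted p = 0.000124) with the block and 1.08 (adjusted p = 0.00117) without the 4 libraries. The averaged difference of Ctsd also passed the test when resident day 9 replicate 2 (0.39, adjusted p = 0.0387), resident day 12 replicate 1 (0.41, adjusted p = 0.0214) or recruited day 9 replicate 1 (0.36, adjusted p = 0.0452) was left out. In the annotation 34.4% of the exon bases of Ctsd are shared with a readthrough gene on the same strand, Gm49369, which has no row in the count table.

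Ctsk and Ctsf were lower in recruited cells. Ctsk, a collagen- and elastin-degrading protease known from osteoclasts, was 6.39 times lower averaged over days (log2 -2.68 ± 0.32, adjusted p = 3.52e-07). Recruited cells held 211, 78.2 and 74.4 CPM on day 3, 138, 156 and 189 on day 6, 87.8, 321 and 251 on day 9, and 308, 137 and 140.5 on day 12. Resident cells held 994, 492 and 539 CPM on day 0, 1287, 1002 and 1369 on day 3, 1210.0, 886 and 1239 on day 6, 639, 2179.6 and 574 on day 9, and 1791, 484 and 463 on day 12. The populations lay apart on every day. The 2 highest resident values again belong to libraries numbered 12 to 18. Without resident day 9 replicate 2 the day 9 difference of Ctsk was -1.46 (adjusted p = 0.0761), against -2.36 with it, and without resident day 12 replicate 1 the day 12 difference was -1.25 (adjusted p = 0.137), against -2.23 with it. Without all 4 libraries both days passed the test, at -1.84 (adjusted p = 0.0125) and -1.75 (adjusted p = 0.0209). The day 12 call also ended, narrowly, without recruited day 12 replicate 2 (adjusted p = 0.0501) or 3 (adjusted p = 0.0506).

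Ctsf, a cysteine protease that can also process the invariant chain, was the lowest cathepsin and 5.07 times lower in recruited cells averaged over days (log2 -2.34 ± 0.16, adjusted p = 3.48e-11). Recruited cells held 3.45, 1.02 and 0.95 CPM on day 3, 6.89, 8.91 and 10.2 on day 6, 4.53, 6.98 and 10.4 on day 9, and 9.52, 9.15 and 9.89 on day 12. Resident cells held 24.8, 31.3 and 32.2 CPM on day 0, 21.7, 20.3 and 12.9 on day 3, 39.1, 37.7 and 32.9 on day 6, 32.9, 26.7 and 42.6 on day 9, and 25.5, 34.8 and 36.0 on day 12. No recruited library reached the resident range. Recruited Ctsf rose by 2.37 ± 0.37 on day 12 over day 3 (adjusted p = 2.37e-05). The population difference narrowed by 1.55 ± 0.47 between day 3 and day 12 (adjusted p = 0.0317). That call ended in 7 of 12 leave-one-out fits, with values from 1.25 to 1.58, and without the 4 libraries (1.44, adjusted p = 0.079).

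Of the remaining cathepsins, Ctsz, a carboxypeptidase, was higher in recruited cells (0.44 ± 0.09, adjusted p = 0.000215). Ctsc, the dipeptidyl peptidase that activates granule proteases, was slightly lower (-0.20 ± 0.07, adjusted p = 0.0252), a call that ended without resident day 3 replicate 3, resident day 9 replicate 2 or resident day 12 replicate 1. Ctsc had its clearest change in resident cells, with 1716, 1560.3 and 1935 CPM on day 3 against 822, 1002 and 1091 CPM on day 0. The groups did not overlap, and the log2 change was 0.84 ± 0.15 (adjusted p = 0.000292). Ctsa, the protective protein that stabilises Glb1 and Neu1, did not pass the test (0.11 ± 0.12, adjusted p = 0.422).

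**Figure D4:**
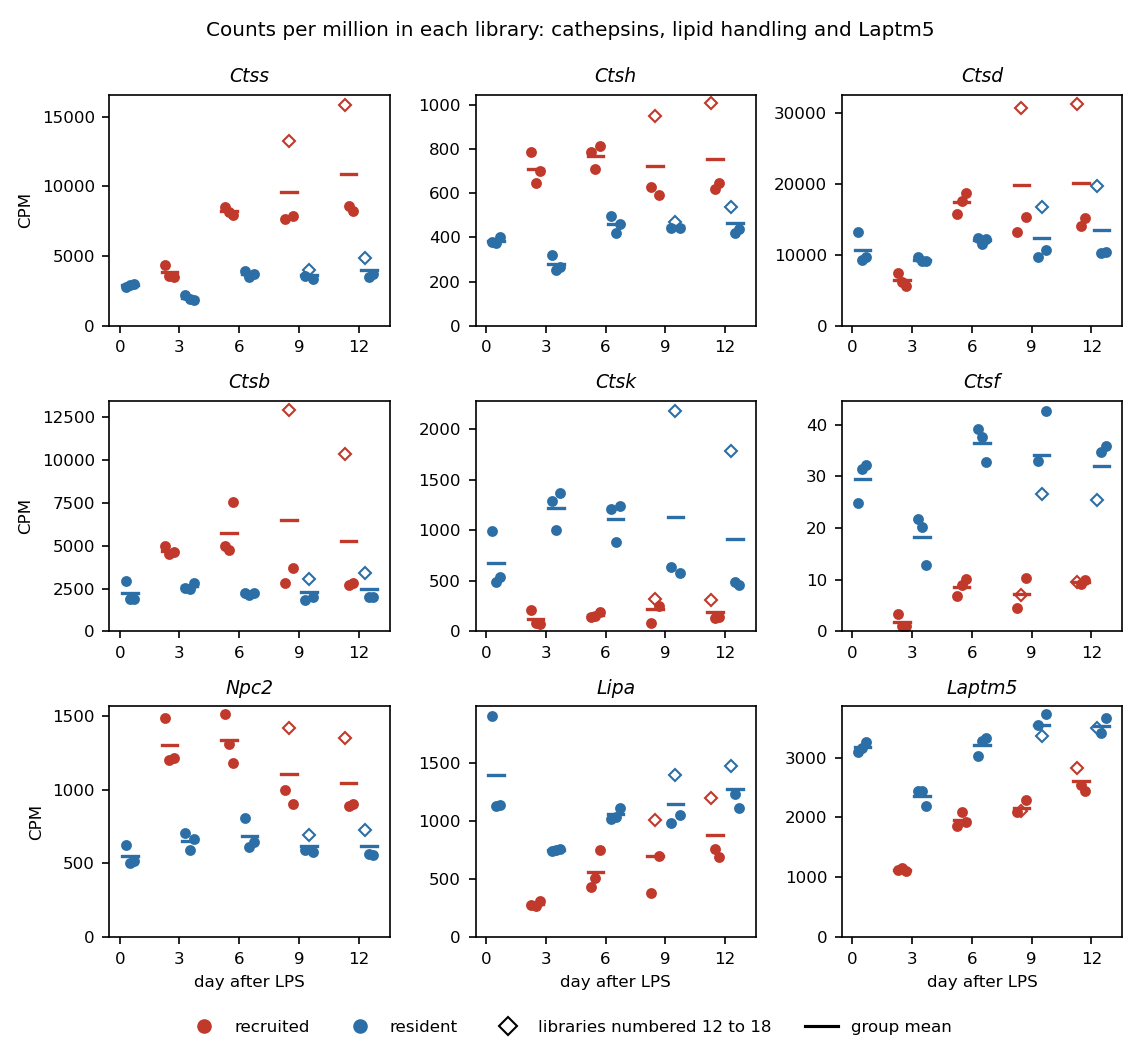
CPM per library by day for the cathepsins Ctss, Ctsh, Ctsd, Ctsb, Ctsk and Ctsf, the lipid-handling genes Npc2 and Lipa, and Laptm5 (recruited cells in red, left of resident cells in blue; open diamonds are the 4 libraries numbered 12 to 18). Recruited Ctss, Ctsh and Npc2 lie above and recruited Ctsk, Ctsf and Laptm5 below the resident points on all 4 days, and the diamonds carry the highest Ctsb values, 10369.5 and 12910.2 CPM.

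The genes of the cytosolic V1 sector, which hydrolyses ATP to drive the pump, differed little. Averaged over days 1 of the 8 was higher, 1 was lower and the median log2 difference was 0.03. Atp6v1b2, which encodes the B subunit of the ATPase ring, was lower in recruited cells in 12 of 12 pairs (-0.30 ± 0.06, adjusted p = 8.2e-05). Atp6v1c1, the C subunit that links ring and stalk, was higher (0.22 ± 0.09, adjusted p = 0.0438), a call that ended in 16 of 24 leave-one-out fits. Atp6v1e1, part of the peripheral stalk, fell in recruited cells on all 3 later days, by 0.53 ± 0.16 on day 12 over day 3 (adjusted p = 0.0123), and Atp6v1f of the central stalk fell by 0.36 ± 0.11 on day 12 (adjusted p = 0.0114). Both day 12 calls ended without recruited day 12 replicate 3, that of Atp6v1e1 also without replicate 2 and that of Atp6v1f without recruited day 3 replicate 1 (-0.25, adjusted p = 0.0892). The catalytic subunit gene Atp6v1a (0.27 ± 0.14, adjusted p = 0.1; 0.25 with the replicate block, adjusted p = 0.000641), Atp6v1d, Atp6v1g1 and Atp6v1h did not pass the test averaged over days. With the 4 libraries left out, Atp6v1d (-0.60, adjusted p = 0.000238) and Atp6v1h (-0.57, adjusted p = 0.0088) also fell in recruited cells on day 12 relative to day 3.

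In the membrane sector V0, through which protons cross, 4 of 8 genes were higher and 3 lower in recruited cells averaged over days, with a median of 0.15. The widest difference was in Atp6v0d2, an isoform of the d subunit known from osteoclasts and macrophages. Recruited cells held 127, 116 and 40.6 CPM on day 3, 375, 494 and 389.7 on day 6, 369.9, 625 and 659.5 on day 9, and 1124, 826 and 831 on day 12. Resident cells held 1022, 1051 and 1278 CPM on day 0, 879.9, 1082 and 969 on day 3, 1139, 1247 and 1205 on day 6, 1095, 1249 and 1026 on day 9, and 1420.2, 1036 and 1082 on day 12. Recruited libraries were below resident ones on days 3, 6 and 9, and on day 12 their highest library lay inside the resident range. The level in recruited cells was 10.3 times lower than in resident cells on day 3 (log2 -3.37 ± 0.30, adjusted p = 9.75e-09), and the difference was -0.35 ± 0.27 on day 12 (adjusted p = 0.388).

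Within recruited cells Atp6v0d2 was 9.77 times as high on day 12 as on day 3 (log2 3.29 ± 0.30, adjusted p = 1.71e-08; 3.15 without the 4 libraries). The population difference changed by 3.02 ± 0.40 between day 3 and day 12 (adjusted p = 4.43e-05), a call that held in each leave-one-out fit. The ubiquitous isoform Atp6v0d1 stood at 213 CPM at the lowest, 249.5 in the median and 360.0 at the highest in recruited libraries, and at 286, 314 and 366 CPM in resident libraries. It was lower in recruited cells in 11 of 12 pairs (-0.30 ± 0.08, adjusted p = 0.00234) and changed by -0.04 ± 0.16 on day 12 over day 3 (adjusted p = 0.859). Per kilobase, the ratio of Atp6v0d2 to Atp6v0d1 was 2.38, 2.32 and 2.19 in the recruited libraries of day 12, against 0.311, 0.292 and 0.094 in those of day 3. In resident libraries it lay at 2.49, 2.12 and 2.20 on day 12 and at 1.59, 2.26 and 2.61 on day 0.

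Atp6v0a1, a form of the large a subunit along which protons pass, crossed over. Recruited cells held 123, 160.0 and 113 CPM on day 3, 179.7, 245 and 292 on day 6, 250.2, 321 and 245 on day 9, and 361, 249 and 248 on day 12. Resident cells held 215, 219 and 219 CPM on day 0, 238, 232 and 235 on day 3, 159.8, 156 and 171 on day 6, 169, 227 and 169 on day 9, and 216, 189 and 186 on day 12. The recruited libraries were all below the resident ones on day 3 and all above them on days 6, 9 and 12. The difference was -0.83 ± 0.17 on day 3 (adjusted p = 0.00032) and 0.54 ± 0.17 on day 12 (adjusted p = 0.0202), and it changed by 1.37 ± 0.24 between them (adjusted p = 0.000557). The rise in recruited cells was 1.12 ± 0.17 on day 12 over day 3 (adjusted p = 1.71e-05). The positive calls of Atp6v0a1 on single days ended when single libraries were left out, for instance recruited day 12 replicate 1 (0.35, adjusted p = 0.152) or recruited day 6 replicate 3 (0.39, adjusted p = 0.102), and the mean call (0.20 ± 0.08, adjusted p = 0.0476) ended in 14 of 24 such fits. On day 12 it also ended without resident replicate 2 (0.51) or 3 (0.50), and on day 9 without resident replicate 1 (0.45) or 3 (0.46) or recruited replicate 2 (0.39). Without the 4 libraries the day 9 call held (0.55, adjusted p = 0.0129) and the day 12 call did not (0.43, adjusted p = 0.0611).

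Atp6v0c, the proteolipid of the rotating ring, ranged from 153 over a median of 211 to 269 CPM in recruited libraries and from 120.0 over 135 to 209.6 CPM in resident libraries. It was higher in recruited cells in 12 of 12 pairs (0.53 ± 0.09, adjusted p = 1.73e-05). In recruited cells it fell by 0.56 ± 0.18 on day 12 relative to day 3 (adjusted p = 0.0141), a call that ended without recruited day 12 replicate 2 (-0.46, adjusted p = 0.077). Reads of the processed pseudogene Atp6v0c-ps2 (1546 counts in all libraries together) cannot be told apart with certainty from those of its parent. Atp6v0b, another proteolipid, was higher (0.20 ± 0.05, adjusted p = 0.00296) and Atp6v0e, a small membrane subunit, lower (-0.23 ± 0.06, adjusted p = 0.00172). Of the accessory proteins, Atp6ap1 was higher (0.23 ± 0.07, adjusted p = 0.0101) and Atp6ap2 did not pass the test (0.11 ± 0.07, adjusted p = 0.195; 0.11 with the replicate block, adjusted p = 0.0449).

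Of the 6 membrane proteins, 3 were higher and 1 lower in recruited cells, with a median of 0.31. Laptm5, a lysosomal protein of blood cells that limits surface receptors, was the lower one (-0.73 ± 0.05, adjusted p = 4.13e-12). Recruited cells held 1120.0, 1159 and 1096 CPM on day 3, 1850.1, 2087 and 1928 on day 6, 2096, 2099 and 2296 on day 9, and 2825, 2546 and 2447 on day 12. Resident cells held 3094, 3157 and 3261 CPM on day 0, 2448, 2448 and 2193 on day 3, 3033, 3279 and 3334 on day 6, 3538, 3366 and 3724 on day 9, and 3497, 3406 and 3668 on day 12. The libraries lay apart on each day. Laptm5 rose in recruited cells by 1.21 ± 0.10 on day 12 over day 3 (adjusted p = 1.18e-09; 1.17 without the 4 libraries), and the difference between populations narrowed by 0.64 ± 0.13 (adjusted p = 0.00245). In resident cells it fell on day 3 relative to day 0 (-0.42 ± 0.09, adjusted p = 0.00205).

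Lamp1, the most abundant glycoprotein of the lysosomal membrane, ranged from 1622 over a median of 1897 to 2906 CPM in recruited libraries and from 1219 over 1372 to 1639 CPM in resident libraries. It was higher in recruited cells in 12 of 12 pairs (0.59 ± 0.09, adjusted p = 2.8e-06). The day 12 call (0.64, adjusted p = 0.00788) ended without recruited day 12 replicate 1 alone (0.39, adjusted p = 0.0941) and held without the 4 libraries (0.52, adjusted p = 0.000818). Lamp2, which takes part in fusion with autophagosomes, was higher as well (0.51 ± 0.12, adjusted p = 0.00105). Cd63, a tetraspanin of late endosomes, was higher averaged over days (0.68 ± 0.25, adjusted p = 0.0212), with 106, 306 and 588 CPM as the lowest, median and highest of the recruited libraries and 100.1, 155 and 348 CPM of the resident ones.

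The 2 highest resident Cd63 libraries are among the 4 that stood apart. The day 12 difference of Cd63 did not pass the test with all libraries (1.03 ± 0.49, adjusted p = 0.134), but was 1.24 (adjusted p = 0.000876) with the replicate block and 1.55 (adjusted p = 0.00833) without the 4. Recruited Cd63 rose by 1.54 ± 0.50 on day 12 over day 3 (adjusted p = 0.0188), a call that ended without recruited day 12 replicate 1 (1.24, adjusted p = 0.0793) or day 3 replicate 2 (adjusted p = 0.0543) or 3 (adjusted p = 0.074). Cd68, the macrophage glycoprotein used as a pan-macrophage stain, did not pass the test in either direction (0.12 ± 0.14, adjusted p = 0.483), with medians of 1000.3 CPM in recruited and 988 CPM in resident libraries. Mcoln1, the calcium channel whose opening activates TFEB, did not pass it between the populations (-0.04 ± 0.05, adjusted p = 0.465).

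Of the 6 lipid-handling genes, 4 were higher and 1 lower in recruited cells, with a median of 0.31. Npc2 and Npc1 hand cholesterol on to leave the lysosome, and both were higher in 12 of 12 pairs. Npc2 ranged from 889 over a median of 1207 to 1515 CPM in recruited libraries and from 558 over 628 to 808 CPM in resident ones, without overlap, and its mean difference was 0.89 ± 0.09 (adjusted p = 1.14e-08). Npc1 ranged from 439 over 685 to 861 CPM in recruited libraries and from 362 over 526 to 642 CPM in resident ones, with a mean difference of 0.43 ± 0.07 (adjusted p = 6.19e-06). Npc1 shares a small part of its exon bases with Rmc1 on the opposite strand, and whether reads were counted by strand is unknown. Psap, the precursor of the saposins that present lipids to hydrolases, ranged from 9524 over 15097 to 23449 CPM in recruited libraries and from 7302 over 9106 to 13566 CPM in resident ones (0.73 ± 0.11, adjusted p = 2.52e-06). Its rise in recruited cells on day 12 over day 3 (0.55 ± 0.21, adjusted p = 0.0442) ended without the 4 libraries (0.37, adjusted p = 0.0753) and without recruited day 3 replicate 2 or 3.

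Lipa, the acid lipase that splits cholesteryl esters and triglycerides, was the lower one. Recruited cells held 280.3, 272 and 314 CPM on day 3, 433, 505 and 747 on day 6, 382, 1008 and 696 on day 9, and 1194, 760.0 and 687 on day 12. Resident cells held 1903, 1130.2 and 1139 CPM on day 0, 738, 749 and 759.6 on day 3, 1016, 1034 and 1115 on day 6, 984, 1396 and 1046 on day 9, and 1471, 1229 and 1111 on day 12. The populations lay apart on days 3 and 6 and overlapped on days 9 and 12 through the recruited libraries numbered 12 to 18. The mean difference was -0.88 ± 0.14 (adjusted p = 8.08e-06), and Lipa was lower in the recruited library of all 12 pairs. Recruited Lipa was 3.05 times as high on day 12 as on day 3 (log2 1.61 ± 0.28, adjusted p = 8.52e-05; 1.35 without the 4 libraries, adjusted p = 0.000184).

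The change of the Lipa difference between day 12 and day 3 was 0.85 ± 0.39 (adjusted p = 0.16), and 0.86 (adjusted p = 0.0179) with the replicate block. The day 12 difference was -0.53 ± 0.27 (adjusted p = 0.165), and -0.54 (adjusted p = 0.0186) with the block. In resident cells Lipa fell on day 3 relative to day 0 (-0.89 ± 0.28, adjusted p = 0.0219), with all day 3 libraries below all day 0 libraries. That call ended without resident day 0 replicate 1 (-0.60, adjusted p = 0.141) or without any 1 of the day 3 libraries (adjusted p = 0.0565 to 0.0667). Asah1, the acid ceramidase, was slightly higher in recruited cells (0.20 ± 0.08, adjusted p = 0.0349), a call that ended in 11 of 24 leave-one-out fits, and Smpd1, the acid sphingomyelinase, did not pass the test averaged over days (0.05 ± 0.08, adjusted p = 0.62).

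Of the 11 glycosidases, sulfatases and other storage enzymes, 5 were higher and 3 lower in recruited cells, with a median of 0.17. Gla, the alpha-galactosidase lost in Fabry disease, was 2.08 times as high (log2 1.06 ± 0.15, adjusted p = 3.52e-06) with 96.4, 164 and 223 CPM as the lowest, median and highest recruited libraries and 57.2, 72.3 and 107 CPM as those of resident cells. Hexa, the alpha chain of beta-hexosaminidase lost in Tay-Sachs disease, was higher by 0.66 ± 0.07 (adjusted p = 1.18e-08). On day 12 recruited Hexa held 1591, 1257 and 1236 CPM, against 881, 756 and 758 CPM in resident cells, and on day 3 it held 753, 598 and 584 CPM, against 693, 596 and 545 CPM. The groups overlapped on day 3 and lay apart on day 12. The difference changed by 0.69 ± 0.19 between these days (adjusted p = 0.017), a call that ended without resident day 3 replicate 1 (0.59, adjusted p = 0.0552).

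Idua, the iduronidase that trims heparan and dermatan sulfate, ranged from 77.0 over a median of 87.2 to 115 CPM in recruited libraries and from 52.5 over 63.3 to 75.8 CPM in resident ones, without overlap (0.51 ± 0.04, adjusted p = 4.63e-10). Its difference narrowed between day 3 and day 12 (-0.37 ± 0.12, adjusted p = 0.0464), a call that ended in 11 of 12 leave-one-out fits (-0.40 to -0.24), with the replicate block (-0.32, adjusted p = 0.0721) and without the 4 libraries (-0.29, adjusted p = 0.142). Idua overlaps Dgkq on the opposite strand, so the share of its reads from that gene is not known. Glb1, the beta-galactosidase, was higher (0.48 ± 0.10, adjusted p = 0.000281), though it shares exon bases on the same strand with Tmppe. The peptidase Tpp1 was higher by 0.25 ± 0.08 (adjusted p = 0.0101).

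The 3 lower enzymes were Ids, the sulfatase that acts beside Idua (-0.32 ± 0.07, adjusted p = 0.000296), the sialidase Neu1 (-0.32 ± 0.06, adjusted p = 5.96e-05) and the thioesterase Ppt1, which removes palmitate from proteins (-0.30 ± 0.06, adjusted p = 0.000153). Ids and Idua, which act on the same sugar chains, thus differed in opposite directions. Ids rose in recruited cells by 1.17 ± 0.14 on day 12 over day 3 (adjusted p = 4.61e-07), with 207, 156 and 144 CPM on day 12 against 81.3, 74.0 and 69.9 CPM on day 3 and no overlap. The same-numbered pairs of Ppt1 had log2 ratios of 0.12, 0.12 and 0.33 on day 3, above 0, and the 9 pairs of later days were all negative. It was called lower on 2 of the 4 days. Ppt1 overlaps the more highly counted gene Cap1 on the opposite strand. Man2b1, the alpha-mannosidase, did not pass the test between the populations (0.00 ± 0.12, adjusted p = 0.99) but was higher in recruited cells on day 12 than on day 3 (1.00 ± 0.25, adjusted p = 0.00258; 0.67 without the 4 libraries, adjusted p = 0.000902). Gusb, the beta-glucuronidase (0.17 ± 0.10, adjusted p = 0.155), and the sulfatase Galns (0.00 ± 0.15, adjusted p = 0.988) did not pass it.

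Over time in recruited cells more of the 52 genes were called higher than lower. Relative to day 3, 18 of the 52 genes were higher and 3 lower on day 6 (31.9% of all tested genes called, 15.1% higher and 16.8% lower), 20 and 3 on day 9 (36.3%, 18.2% and 18%), and 20 and 5 on day 12 (39.3%, 19.8% and 19.5%). With library size alone in place of TMM scaling the split of the 52 genes was 22 to 2, 24 to 3 and 23 to 3. The background tilted upwards too, with 17.2% of all tested genes higher and 12.8% lower on day 6. It was 22.4% and 13.1% on day 9, and 22.4% and 15.3% on day 12. The median of all tested genes moved to 0.15 on day 9, against 0.03 with TMM. These comparisons share the day 3 libraries. The 16 genes higher on all 3 later days were Ctsd, Ctsf and Ctss, the pump genes Atp6v0a1 and Atp6v0d2, Laptm5 and Mcoln1, the lipid genes Asah1, Lipa, Npc1 and Psap, the enzymes Glb1, Hexa, Ids and Man2b1, and Tfeb. Some of these calls ended when single libraries were left out, in 5 of 6 such fits for Tfeb on day 6, in 4 of 6 for Asah1 on day 9 and Glb1 on day 12, and in at most 3 of 6 for Psap, Mcoln1 and Lipa. With the replicate number as a term shared by all days, the day 12 change of Glb1 was 0.53 (adjusted p = 0.0529).

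The median change of the 52 genes was 0.25 on day 6, beside 0.01 for all tested genes, 0.21 on day 9, beside 0.03, and 0.24 on day 12, beside 0.02. The 4 libraries numbered 12 to 18 bear on the 2 later days. Without them the median was 0.03 on day 9, beside 0.04 for all tested genes, and 0.05 on day 12, beside 0.035. With the runs of header numbers as a covariate, in which the same 4 libraries form 1 run, the median was 0.08 and 0.03. Without the 4 libraries 17 genes were higher and 12 lower on day 12 over day 3, beside 21.5% and 19.5% of all tested genes, and 18 and 11 on day 9, beside 21.1% and 19.6%, so the lower genes lay near the background. Psap, Glb1 (0.25, adjusted p = 0.0813) and Tpp1 (0.23, adjusted p = 0.052) no longer passed the test on day 12. Ctsb, Ctsz (-0.58, adjusted p = 0.00328), Gla (-0.66, adjusted p = 0.00569), Npc2 (-0.52, adjusted p = 0.00497), Atp6v0e (-0.30, adjusted p = 0.0478), Atp6v1d and Atp6v1h were lower on day 12. In the same setting Ctsd, Ctss, Ctsf, Lipa, Atp6v0d2, Atp6v0a1 and Laptm5 passed the test in the direction they had with all libraries.

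**Figure D5:**
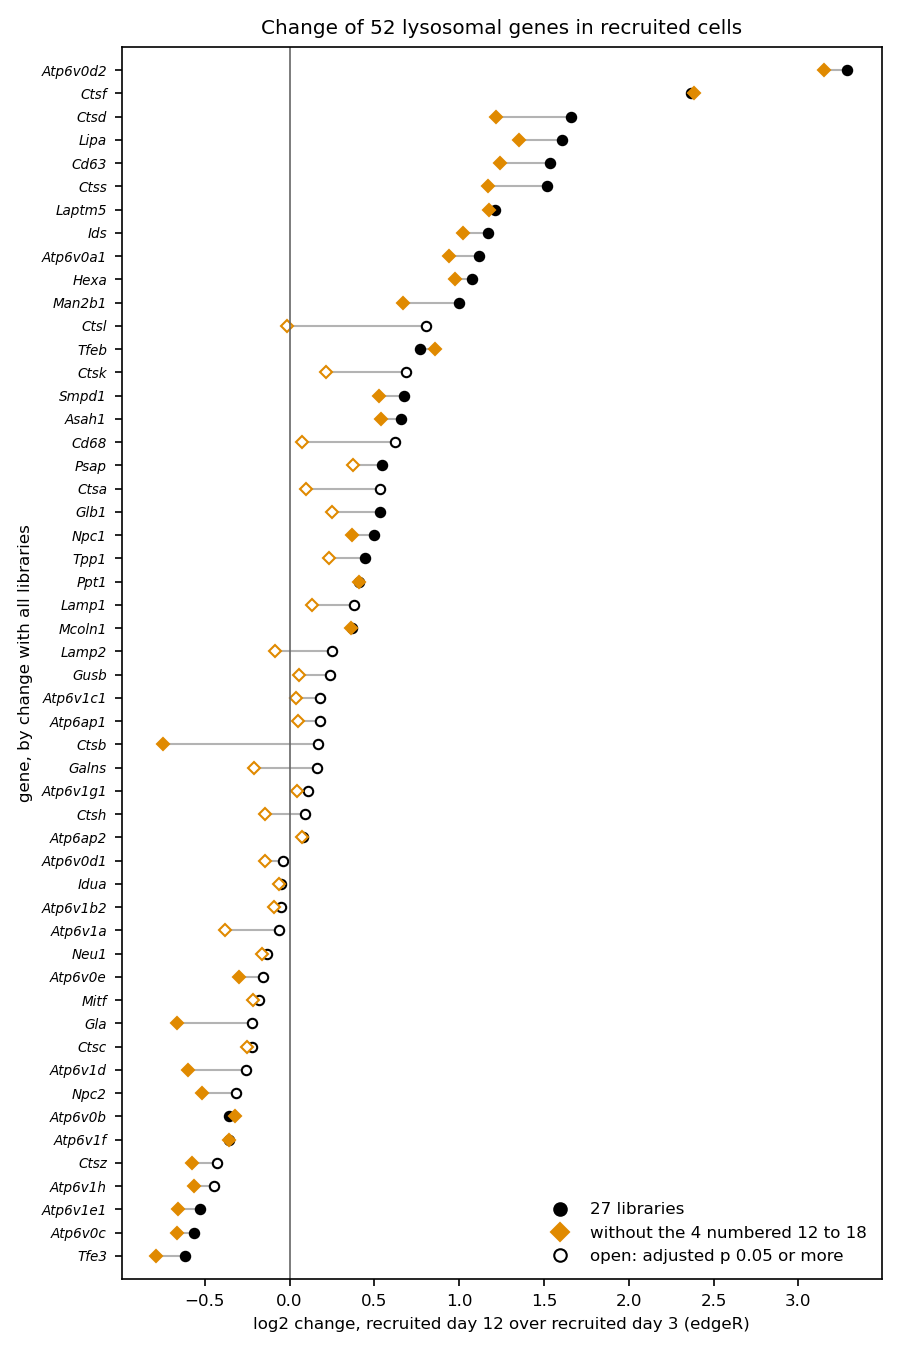
Log2 change of each of the 52 genes in recruited cells on day 12 over day 3, with all 27 libraries (black) and without the 4 libraries numbered 12 to 18 (orange); open points did not pass the test. Atp6v0d2 (3.29 and 3.15) and Ctsf (2.37 and 2.38) lie farthest to the right in both, and Ctsb lies at 0.17 in the first and at -0.75 in the second.

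Resident cells changed less, and mainly on day 3. Relative to untreated resident cells, 3 of the 52 genes were higher and 10 lower on day 3, beside 23.8% of all tested genes called, 13.3% higher and 10.5% lower. The median log2 change was -0.13 for the 52 genes and 0.00 for all tested genes. The 10 lower genes were Lipa, Npc1 (-0.64 ± 0.13, adjusted p = 0.00119), Ids (-0.68 ± 0.14, adjusted p = 0.000814), Ppt1 (-0.64 ± 0.12, adjusted p = 0.000535), Mcoln1 (-0.43 ± 0.09, adjusted p = 0.00132), Laptm5, Tfeb, Hexa, Idua and Atp6v1g1. The 3 higher ones were Ctsc, Ctsz (0.63 ± 0.18, adjusted p = 0.0146) and Smpd1 (0.47 ± 0.16, adjusted p = 0.0406). The call of Smpd1 ended in all 6 leave-one-out fits (adjusted p = 0.0533 to 0.114), that of Ctsz in 3 of them (0.52 to 0.58), those of Hexa and Idua in 3 and 2, and that of Atp6v1g1 in 4. Without resident day 3 replicate 2 or 3 the total was 8 in place of 13. Resident day 0 replicate 1 was itself above both other day 0 libraries in 37 of the 52 genes, beside 40.1% of all tested genes.

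On day 6 resident cells had 1 higher gene, Ctsc, and 1 lower gene, Atp6v1g1 (6.42% of all tested genes called, 3.77% higher and 2.65% lower). On day 9 there was 1 called gene, again Atp6v1g1, which was lower (3.49%, 1.61% and 1.88%). On day 12 edgeR and DESeq2 called 0 of the 52 (1.3%, 1.1% and 0.206% by edgeR), of which 6 had an unadjusted p under 0.05. These comparisons share the day 0 libraries. Across the populations, 6 of the 52 genes had a difference between recruited and resident cells that changed over days 3 to 12 (10.7% of all tested genes): Atp6v0d2, Atp6v0a1, Hexa, Laptm5, Ppt1 and Idua. Between day 3 and day 12 alone 5 changed upwards and 1 downwards (13.6%, 7.38% and 6.24%). With the replicate block these totals were 16 and 14, beside 18.1% and 21.6% of all tested genes. Without the 4 libraries they were 14 and 10, beside 16% and 15.8%.

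Lysosomal genes outside the 52 were followed in 8 further lists of 119 genes, of which 105 were tested. Averaged over days 47 of these 105 were higher and 22 lower in recruited cells, beside the 60.3% of all tested genes called, 30.3% higher and 30.0% lower. Of 3 tested pump genes, 1 was higher: Tcirg1, an a subunit known from osteoclasts (0.34 ± 0.06, adjusted p = 5.88e-05), with 678 ± 44.8 CPM in recruited cells on day 12 and 1013 ± 57.4 CPM on day 3, against 599.6 ± 29.7 and 667 ± 66.6 CPM in resident cells (SD, n = 3 each). Of 8 tested proteases, 5 were higher and 1 lower, with Scpep1, a serine carboxypeptidase, higher by 1.46 ± 0.09 (adjusted p = 1.4e-12). Of 6 tested cathepsin inhibitors, 3 were higher and 1 lower. The lower one was Serpinb6a (-2.35 ± 0.28, adjusted p = 2.99e-07), which averaged 72.0 ± 49.2 CPM in recruited cells on day 12 and 12.0 ± 7.84 CPM on day 3, against 193 ± 38.4 and 174 ± 3.0 CPM in resident cells.

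Of 17 tested glycosidases and sulfatases outside the 52, 8 were higher and 3 lower, and Sgsh, the heparan sulfamidase, was higher by 3.94 ± 0.27 (adjusted p = 6.48e-11), averaging 38.5 ± 25.8 CPM in recruited cells on day 12 and 41.9 ± 5.8 CPM on day 3, against 2.90 ± 1.68 and 4.01 ± 1.2 CPM in resident cells. Of 14 tested lipid hydrolases, 6 were higher and 5 lower. Pla2g15, the lysosomal phospholipase A2 that acts on surfactant phospholipid, was lower by 0.95 ± 0.09 on the log2 scale (adjusted p = 1.38e-09), like Lipa among the 52, and averaged 495 ± 59.3 CPM in recruited cells on day 12 and 92.4 ± 18.4 CPM on day 3, against 694 ± 62.2 and 325 ± 78.6 CPM in resident cells. Of 29 tested membrane proteins and transporters, 14 were higher and 6 lower. The metal transporter Slc11a1 was higher by 3.55 ± 0.32 (adjusted p = 5.43e-09), with 229.8 ± 188 CPM on day 12 and 862 ± 146 CPM on day 3 in recruited cells, against 27.2 ± 5.21 and 110.5 ± 40.0 CPM in resident cells. The calcium channel Mcoln3, a relative of Mcoln1, was lower (-3.11 ± 0.17, adjusted p = 7.47e-13), with 99.1 ± 13.2 CPM on day 12 and 6.27 ± 5.65 CPM on day 3 in recruited cells, against 303 ± 38.6 and 185 ± 19.6 CPM in resident cells.

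Of 10 tested genes that sort enzymes to the lysosome, 3 were higher and 4 lower. The mannose 6-phosphate receptor Igf2r was higher (2.56 ± 0.39, adjusted p = 9.51e-06), with 265 ± 194 CPM on day 12 and 634 ± 86.6 CPM on day 3 in recruited cells, against 59.0 ± 65.2 and 127 ± 20.3 CPM in resident cells. Sortilin, Sort1, was lower (-1.51 ± 0.08, adjusted p = 7.38e-14), with 1245 ± 175 CPM on day 12 and 322 ± 27.3 CPM on day 3 in recruited cells, against 2255 ± 51.3 and 1646 ± 153 CPM in resident cells. Over time in recruited cells Sort1 rose on day 12 over day 3 (1.95 ± 0.15, adjusted p = 1.25e-09), and Igf2r did not pass the test (-1.26 ± 0.74, adjusted p = 0.191). Of 18 tested genes of nutrient sensing at the lysosome, 7 were higher and 2 lower, with Fnip2, a partner of folliculin, higher by 1.26 on the log2 scale. On day 12 over day 3 in recruited cells, 37 of the 105 genes were higher and 20 lower, beside 19.8% and 19.5% of all tested genes. On day 3 over day 0 in resident cells 13 were higher and 17 lower, beside 13.3% and 10.5%.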

How the data were processed

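Polyadenylated RNA was read on an Ion Proton from a stranded mRNA kit, per the labels' protocols. The deposited table holds whole-number counts per gene made by the authors; the submitters' processing notes name, without roles, the build mm10, R 3.1.0, DESeq2 1.4.5, HTSeq 0.6.0 and STAR 2.4.0a. The strand setting was not found in these notes, so overlapping genes on opposite strands may share reads. The 5 classes of reads outside genes stayed out of library sizes and tests; those assigned to no gene made up 6.77% to 26.45% of a library.

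Gene symbols came from GENCODE M21 (36345 of 38124 identifiers matched). Genes were kept with filterByExpr (minimum count 10, minimum total 15), scaled by TMM and tested in edgeR 4.0.16 by its quasi-likelihood F test, with 1 mean for each of 9 groups over 27 libraries (18 residual degrees of freedom), in 16 comparisons, and Benjamini-Hochberg adjusted over 13599 genes (threshold 0.05). Standard errors were derived from the F statistic. Errors after ± are SE for log2 changes and SD for levels. Levels per kilobase used the longest principal transcript. The script was tested on simulated data.

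Recruited and resident libraries of the same day and number deviated together from their group means. Their r was 0.18 to 0.59 in 12 of 12 pairs, so the numbers pair them. For comparisons between the populations the replicate block is a fit with these pairs. Across days r ranged from -0.52 to 0.46, and the main fit used no pairing. For comparisons over time the replicate block is another fit, with the replicate number as a term shared by all days. Alternatives were RLE scaling, library size alone, no filter, DESeq2 1.42.0, covariates for reads outside genes and for runs of the library numbers in the column headers, the compared libraries alone, and leaving out each library. The runs of library numbers were grouped by eye, and 1 of them is exactly the 4 libraries numbered 12 to 18. Leaving out these 4 libraries was added after their values were seen. Given in full were, for each role, up to 4 called genes with libraries apart on each day, by size of mean difference, the 2 largest called changes in either direction in each of 3 further comparisons (resident day 3 over day 0, recruited day 12 over day 3, and the change of the difference), and 17 fixed genes. Genes outside the 52 are examples, picked after their values were seen, from up to 4 per list by the same rule. The 52 genes, the other gene lists and the markers were chosen with earlier results of these data known.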

Additional observations from a re-analysis of the deposited data

Results flagged for a closer look

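Genes are listed here because the difference between recruited and resident cells changed with the day by a test of the change itself. Over days 3 to 12 the adjusted p of this change was 0.000191 for Atp6v0d2, 0.000556 for Atp6v0a1, 0.00646 for Ppt1, 0.0108 for Hexa, 0.0157 for Laptm5 and 0.03 for Idua, by edgeR's test over all days together. The difference on day 12 minus that on day 3 was 3.017 for Atp6v0d2, 1.555 for Ctsf, 1.371 for Atp6v0a1, 0.693 for Hexa, 0.635 for Laptm5 and -0.369 for Idua, on the log2 scale. For Atp6v0d2, Ctsf and Laptm5 the recruited level was lower than the resident one on day 3 and the gap was smaller on day 12. For Atp6v0a1 the sign turned, and for Hexa a difference that did not pass the test on day 3 was a called one on day 12. The changes of Atp6v0d2, Atp6v0a1 and Laptm5 between day 3 and day 12 passed the test in every fit that left out 1 library, and those of Ctsf, Hexa and Idua did not.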

How the results depend on the processing

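With the 4 libraries numbered 12 to 18 left out, an alternative chosen after seeing the data, Ctsb in recruited cells reversed to -0.51 on day 9 and -0.75 on day 12 over day 3. Counts of the 52 genes in that setting, with those of all tested genes in parentheses, were 3 (705) in resident cells on day 9. They were 22 (4814, or 34.7%) in resident cells on any day, against 14 (26.1%) with all libraries. For the change of the population difference they were 14 (2222) over any day and 10 (2187) for day 12 minus day 3. The replicate block that pairs recruited and resident libraries gave 30 (4771 of all genes) on day 12. It gave 16 (2463) for the change over any day and 14 (2937) for day 12 minus day 3. Both forms of the block together, between populations and over time, added 65 single-gene calls and ended 5, those of values printed above standing beside them. No other count of the 52 genes moved by over 1.5 times in these fits. When runs of the header numbers entered as covariate, counts, with all genes in parentheses, were 28 (4661) for recruited over resident cells on day 12. In resident cells they were 23 (4462), 9 (1586), 4 (1076) and 2 (379) on days 3, 6, 9 and 12, and 25 (5283) on any day. They were 35 (6492) in recruited cells on any day, and 14 (2483) and 13 (2819) for the change of the difference. With only the compared libraries they were 10 (2497) on day 9 and 8 (2814) on day 12 for recruited over resident cells. In resident cells they were 8 (1446) and 0 (122) on days 6 and 9, and in recruited cells 13 (2772) on day 9 and 15 (3358) on any day. Library size alone gave 5 (7.36%), 2 (4.65%) and 1 (1.42%) in resident cells on days 6, 9 and 12. No filter gave 0 (1.33%) in resident cells on day 9. DESeq2 called 812 of all genes in resident cells on day 9, and 384 on day 12. The cause of these moves was not tested.

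With each library left out in turn, the counts of the 52 genes, and in parentheses of all tested genes, were 34 to 39 (8047 to 8368) for recruited over resident cells over all days, 13 to 17 (5445 to 6013) on day 3, 21 to 24 (3897 to 4502) on day 6, 16 to 27 (3557 to 4265) on day 9 and 10 to 18 (2894 to 3309) on day 12. They were 8 to 11 (1895 to 2850) in resident cells on day 3, 0 to 3 (450 to 605) on day 6, 0 to 1 (167 to 405) on day 9, 0 in every fit (75 to 144) on day 12 and 7 to 15 (2106 to 3773) on any day. They were 17 to 18 (3394 to 4069) in recruited cells on day 6, 17 to 23 (3978 to 5027) on day 9, 21 to 26 (4529 to 5087) on day 12 and 16 to 27 (3962 to 5577) on any day. They were 3 to 8 (897 to 1679) for the change of the difference on any day and 3 to 8 (1276 to 2032) for day 12 minus day 3. The lowest counts of the 52 genes came without resident day 3 replicate 2 or 3 (8 in resident cells on day 3, 9 and 7 on any day) and without resident day 3 replicate 1 (3 for both forms of the change of the difference). Among all tested genes, the lowest counts in resident cells came without day 3 replicate 3 (1895 on day 3, 2106 on any day), day 0 replicate 1 (167 on day 9) and day 12 replicate 1 (75 on day 12), and for the change on any day without recruited day 3 replicate 2 (897).

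Of single-gene values, 5425 kept direction and side of the threshold in settings other than leaving out 1 library, 293 passed it newly, 104 no longer passed it and 2 reversed, both Ctsb. RLE scaling changed 5 such calls and DESeq2 8.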
